A study of Mus musculus with 39 samples.

Results

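Genes that mark the trophoblast and the extraembryonic ectoderm were followed through mouse epiblasts and epiblast stem cells with and without *Stat3*. They were 30 known markers taken by name, and all 30 were among the 47643 genes of both count matrices. By their known roles they fell into 8 transcription factors of trophoblast stem cells and extraembryonic ectoderm (*Elf5*, *Cdx2*, *Tfap2a*, *Tfap2c*, *Gata3*, *Esx1*, *Ets2* and *Tead4*), 4 secreted signals and carriers (*Bmp8b*, *Wnt7b*, *Fgfbp1* and *Sct*), 6 genes of the ectoplacental cone and spongiotrophoblast (*Ascl2*, *Tpbpa*, *Plet1*, *Plac1*, *Gjb5* and *Nrk*), 5 genes of trophoblast giant cells (*Hand1*, *Prl3d1*, *Prl3d3*, *Prl2c2* and *Mmp9*), 3 *Rhox* homeobox genes (*Rhox5*, *Rhox6* and *Rhox9*) and 4 keratins of simple epithelia (*Krt7*, *Krt8*, *Krt18* and *Krt19*).

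RNA was sequenced from 35 epiblasts and 4 lines of epiblast stem cells (EpiSCs). The *Stat3* null embryos came from matings of heterozygotes on a CD1 background, carried the null allele in every cell, and had a neomycin resistance cassette in place of *Stat3* exons. WT embryos had intact *Stat3* alleles. At E5.5 there were 4 *Stat3* null and 2 WT libraries, at E6.5 there were 8 and 9, at E7.5 there were 3 and 9, and the EpiSCs comprised *Stat3* null lines 2 and 6 and WT lines 8 and 13, each EpiSC library being 1 line and each epiblast library 1 embryo. EpiSCs, which are cultured counterparts of the epiblast after implantation, were grown with FGF2, Activin A and the tankyrase inhibitor XAV on fibronectin. Before lysis the extraembryonic ectoderm and the visceral endoderm were cut and drawn away from each epiblast by hand, and the embryo was genotyped from its extraembryonic tissue. The values below therefore describe the tissue left after dissection, and in such bulk samples a smaller number of cells of a type and less RNA per cell cannot be told apart.

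Trophoblast is the lineage that builds the fetal part of the placenta. Its stem cells lie next to the epiblast in the extraembryonic ectoderm, where *Cdx2*, *Elf5*, *Eomes* and *Tfap2c* maintain them in response to FGF and Nodal from the epiblast, and where BMP signals are sent back that induce germ cells and mesoderm. Away from the epiblast these cells form the ectoplacental cone, marked by *Ascl2* and *Tpbpa*, and then giant cells, which need *Hand1* and secrete placental prolactins such as *Prl3d1*. Several of the 30 genes have other sites of expression in the embryo at E7.5: *Cdx2* in the posterior primitive streak and the allantois, *Hand1* in extraembryonic mesoderm and amnion, *Tfap2a* in surface ectoderm and amnion, and *Krt8* and *Krt18* in every simple epithelium, including the endoderm.

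Total counts were 22941210 to 38635127 per library at E5.5, 27913392 to 79013960 at E6.5, 25793920 to 41655234 at E7.5 and 63445877 to 127583699 in EpiSCs. Levels are given as CPM, the counts of a gene over all counts of its library scaled to 1000000, and 3 counts, taken as the limit of detection, were worth 0.0380 to 0.131 CPM in the epiblasts and 0.0235 to 0.0473 CPM in the EpiSCs. *Stat3* itself was at 9.21 to 22.6 CPM in *Stat3* null and 39.3 to 49.4 CPM in WT epiblasts at E5.5, 1.41 to 7.59 and 5.84 to 27.2 CPM at E6.5, 1.22 to 1.48 and 4.803 to 25.3 CPM at E7.5, and 3.17 to 3.52 and 17.8 to 23.0 CPM in EpiSCs, with an overlap between the genotypes at E6.5 only. There were 3 libraries that stood apart from others with the same labels. The library labelled E5.5 *Stat3* null 1 held 0.654 CPM of *Pou5f1*, against 101 to 293 CPM in the remaining 5 E5.5 libraries, and no counts of *Fgf5*, *Nanog*, *Tdgf1* or *Otx2*. Other epiblast markers were present in it, with *Dnmt3b* at 771 CPM against 1293 to 3099 CPM in the remaining 5 and with *Sox2* and *L1td1* inside their ranges, and the sum of the 10 epiblast markers was 1324 CPM against 2111 to 4698 CPM. E6.5 *Stat3* null 1 held 18.9 CPM of *Fgf5*, where the other 16 E6.5 libraries had 83.6 to 143 CPM. E7.5 WT 3 held 155 CPM of *Fgf5*, where the other 8 E7.5 WT libraries had 2.75 to 8.86 CPM and the 3 *Stat3* null libraries 79.3 to 137 CPM. The fitted comparisons of the 30 genes between groups that hold these libraries, and the mean levels per kilobase, are also given without them.

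The sequence upstream of 6 of the genes is shown first, because these genes carry the results that follow: *Elf5* and *Cdx2*, which were high together at E5.5 and parted at E7.5, the neighbours *Krt8* and *Krt18*, which followed each other from library to library, and *Prl3d1* and *Prl3d3*, which are near-copies. Each run is the longest part of the 250 bases before a transcription start given by RefSeq on GRCm38.p6 that no annotated exon covers. It reaches the start for *Prl3d1* and stops 4 bases before it for *Prl3d3*, 6 for *Elf5*, 21 for *Cdx2*, 36 for *Krt18* and 140 for *Krt8*. Capitals mark a match to 1 of the 3 motifs named below.
Elf5 (chr2:103423818-103424061, + strand): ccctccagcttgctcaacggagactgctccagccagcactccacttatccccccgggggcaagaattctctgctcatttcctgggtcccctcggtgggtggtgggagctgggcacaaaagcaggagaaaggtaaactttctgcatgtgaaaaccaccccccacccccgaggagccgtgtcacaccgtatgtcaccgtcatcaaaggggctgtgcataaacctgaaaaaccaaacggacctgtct
Cdx2 (chr5:147307271-147307499, - strand): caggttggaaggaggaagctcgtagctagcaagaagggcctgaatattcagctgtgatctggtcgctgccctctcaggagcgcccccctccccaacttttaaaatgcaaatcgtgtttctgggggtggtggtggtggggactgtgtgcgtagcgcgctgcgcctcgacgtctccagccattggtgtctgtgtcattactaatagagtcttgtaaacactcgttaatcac
Krt8 (chr15:102004483-102004592, - strand): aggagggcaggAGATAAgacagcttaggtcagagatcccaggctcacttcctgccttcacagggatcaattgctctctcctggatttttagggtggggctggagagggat
Krt18 (chr15:102027966-102028179, + strand): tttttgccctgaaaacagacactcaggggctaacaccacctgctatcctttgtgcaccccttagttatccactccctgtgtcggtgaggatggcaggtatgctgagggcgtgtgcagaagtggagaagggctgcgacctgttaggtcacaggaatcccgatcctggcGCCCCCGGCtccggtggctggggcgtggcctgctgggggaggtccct
Prl3d1 (chr13:27093939-27094188, + strand): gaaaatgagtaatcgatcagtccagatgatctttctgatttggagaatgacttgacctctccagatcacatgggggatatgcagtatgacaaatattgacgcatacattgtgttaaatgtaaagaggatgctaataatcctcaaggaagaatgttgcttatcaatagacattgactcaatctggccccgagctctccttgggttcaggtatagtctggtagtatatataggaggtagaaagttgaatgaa
Prl3d3 (chr13:27156544-27156789, + strand): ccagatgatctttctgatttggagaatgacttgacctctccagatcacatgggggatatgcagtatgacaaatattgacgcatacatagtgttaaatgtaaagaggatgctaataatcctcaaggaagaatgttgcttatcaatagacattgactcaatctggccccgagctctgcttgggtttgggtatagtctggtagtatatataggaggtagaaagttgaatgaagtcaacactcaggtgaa

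RefSeq windows were found for 21 of the 30 genes, 24 windows in all, and the 250 bases before each start were searched on both strands and separately for each motif. The letters GCCNNNGGC, a form bound by TFAP2 factors, were found in 7 of the 24 windows (29.2%) and in 13.7% of the 32851 windows of all genes, in those of *Cdx2*, *Gata3*, *Gjb5*, *Krt18*, *Krt7*, *Sct* and *Tpbpa*. CATTCC, bound by TEAD factors, was found in 1 window (4.17%), that of *Elf5*, and in 12.6% of all windows. AGATAA, bound by GATA factors, was found in 2 windows (8.33%), those of *Krt8* and *Plac1*, and in 9.99% of all windows. The match of *Cdx2* lay in the part of its window that is not printed. *Elf5* had more than 1 window, and its match lay before another start (chr2:103411848-103412097), in a window of which no part is printed. A match describes the letters, not a bound site. *Krt8* (chr15:101996698-102004482, minus strand) and *Krt18* (chr15:102028180-102032027, plus strand) are read away from each other, and the upstream runs of *Prl3d1* and *Prl3d3* shared 225 of 229 aligned bases (98.3%).

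Transcripts of this set were present in every epiblast library, at levels that ranged widely between embryos of the same stage. The summed level of the 30 genes was 3540.3, 1912, 823 and 1773 CPM in the E5.5 *Stat3* null libraries 1 to 4 and 1858 and 803 CPM in WT. At E6.5 the lowest, median and highest sums were 324, 509.5 and 1177 CPM in *Stat3* null libraries other than library 1, which reached 2544 CPM, and 153, 187 and 977 CPM in WT. At E7.5 the sums were 230.0, 152 and 304 CPM in *Stat3* null epiblasts, 294 CPM in WT 3 and 758 to 1242 CPM in the other 8 WT. EpiSCs, prepared with other kits and therefore only set beside the epiblasts, had sums of 55.5 and 76.8 CPM in the *Stat3* null lines and 64.9 and 54.1 CPM in WT lines 8 and 13. E5.5 *Stat3* null 1 had the highest level of its stage for 16 of the 28 genes detected at E5.5, and E6.5 *Stat3* null 1 for 23 of the 29 detected at E6.5. *Tpbpa*, which marks spongiotrophoblast precursors in the ectoplacental cone, had no count in any of the 39 libraries.

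**Figure D1:**
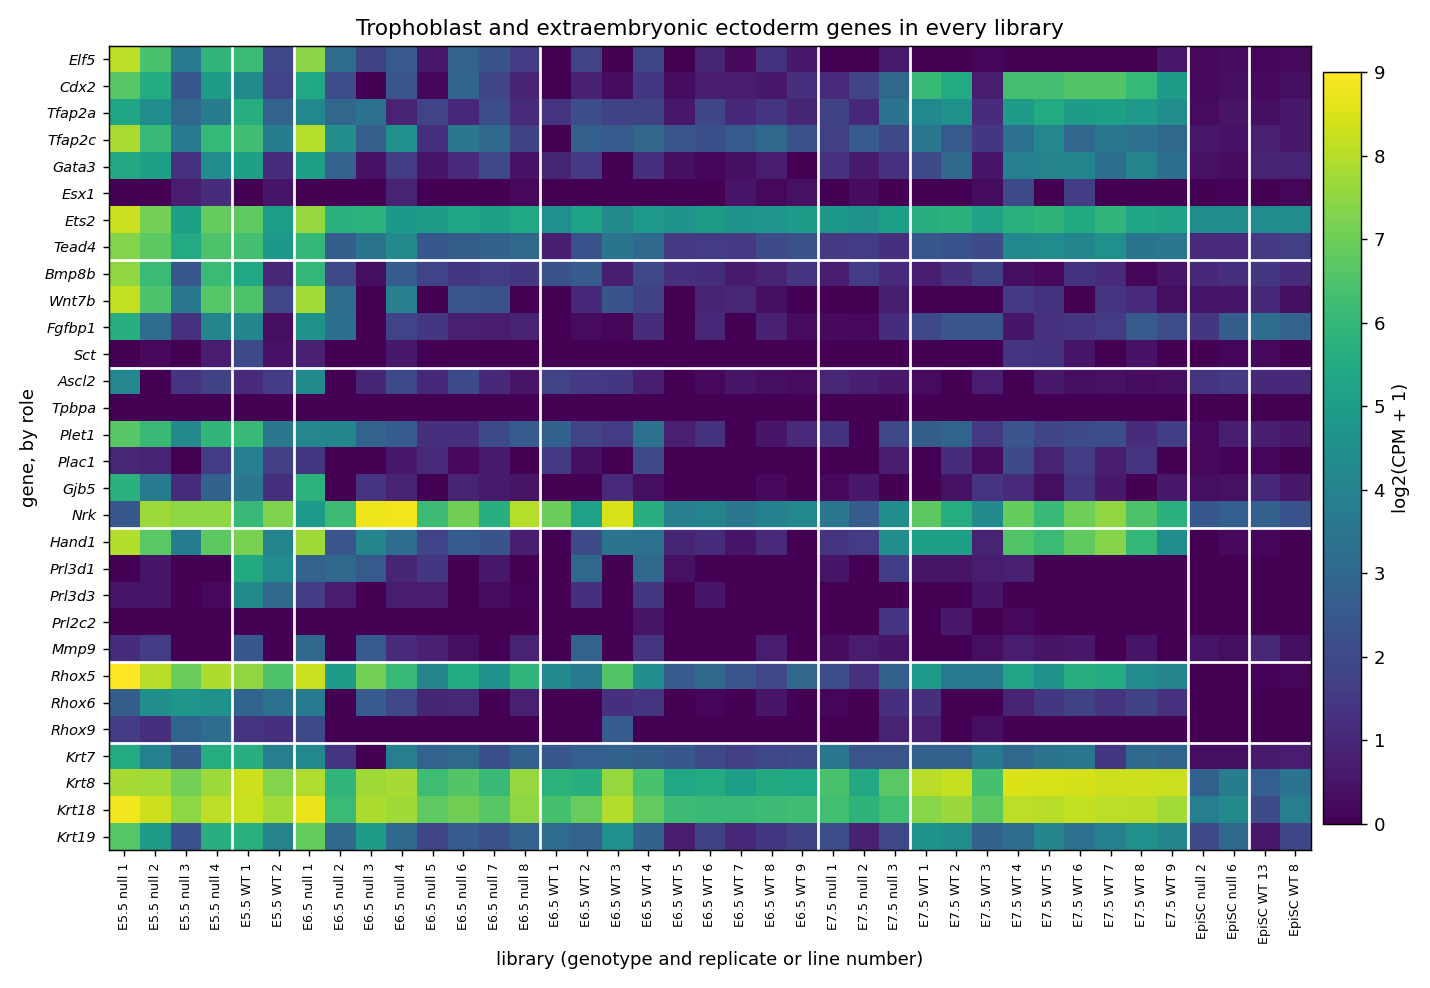
Level of the 30 genes (rows, grouped by role) in each of the 39 libraries (columns, grouped by stage and genotype), as log2(CPM + 1) on the colour scale, brighter where higher. The first *Stat3* null columns of E5.5 and E6.5 are bright over most transcription factors and signals, whereas the *Krt8* and *Krt18* rows stay bright in all epiblast libraries and those of *Krt7* and *Krt19* do not.

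Levels were compared between genes per kilobase of exon. The mean over the 35 epiblast libraries was 127 CPM per kb for *Krt18*, 98.9 for *Rhox5*, 85.8 for *Krt8*, 21.8 for *Hand1*, 11.6 for *Nrk* and 10.5 for *Cdx2*. Without the 3 libraries that stood apart these means were 117, 69.6, 85.04, 16.6, 12.6 and 9.51 CPM per kb in the same order of genes. In E5.5 *Stat3* null epiblasts *Rhox5*, a homeobox gene on the X chromosome, led with a mean of 408 CPM per kb, ahead of *Krt18* at 213 CPM per kb, and without library 1 it led with 275 against 178 CPM per kb. In E7.5 WT epiblasts *Krt18* and *Krt8*, the partner filament proteins of simple epithelia, led with means of 159 and 149.8 CPM per kb, and *Rhox5* followed at 35.5 CPM per kb, while without WT 3 the 3 means were 169, 163 and 37.9 CPM per kb.

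At E5.5 most of these genes varied far more between embryos than between genotypes. *Elf5*, an ETS factor that maintains trophoblast stem cells, was at 273, 85.3, 12.03 and 57.5 CPM in *Stat3* null libraries 1 to 4 and at 69.0 and 2.88 CPM in WT 1 and 2. *Cdx2*, the caudal homeobox factor of trophoblast stem cells, was at 100.01, 45.7, 4.53 and 29.7 CPM and 18.6 and 2.53 CPM in the same order. Both genes were highest in *Stat3* null 1 and lowest in WT 2, and the genotypes overlapped. *Tfap2c*, an AP-2 factor of trophoblast and germ cells, was at 229, 65.2, 12.5 and 64.3 CPM in *Stat3* null and 74.6 and 12.8 CPM in WT libraries. *Wnt7b*, a Wnt ligand, was at 291, 89.8, 11.3 and 99.0 CPM and 88.0 and 2.74 CPM, and *Bmp8b*, the BMP that acts with *Bmp4* in germ cell induction, at 183, 69.1, 4.43 and 69.7 CPM and 39.8 and 0.949 CPM. *Hand1*, the bHLH factor of giant cells, was at 250.3, 102, 12.9 and 104 CPM and 144 and 15.7 CPM. For these genes *Stat3* null 1 was likewise at the top, and *Stat3* null 3 and WT 2 were at the bottom.

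*Krt8* and *Nrk* kept another order. *Krt8* was at 223, 217, 137 and 207 CPM in *Stat3* null and 318 and 160.3 CPM in WT libraries, highest in WT 1. *Krt18*, at 454, 319, 176 and 274 CPM and 304 and 212 CPM, was highest in *Stat3* null 1 and lowest in *Stat3* null 3, and both keratins had a far narrower range than *Elf5*. *Nrk*, a kinase gene of the placenta on the X chromosome, was at 4.63, 206, 176 and 178 CPM and 65.6 and 153 CPM, so that it was lowest in *Stat3* null 1, the library in which *Elf5* was highest. *Rhox6*, a homeobox gene beside *Rhox5* on the X chromosome, was at 5.23, 21.3, 26.3 and 23.7 CPM and 6.503 and 9.46 CPM and was also lowest in *Stat3* null 1. The summed level of 18 visceral endoderm markers was 395 CPM in *Stat3* null 1 and 7132 to 14926 CPM in the other 5 libraries.

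Among the other transcription factors at E5.5, *Ets2*, an ETS factor that acts downstream of FGF in trophoblast, was at 312, 137, 33.5 and 116 CPM in *Stat3* null 1 to 4 and 108 and 31.99 CPM in WT 1 and 2. *Tead4*, the TEAD factor that starts trophectoderm fate in the blastocyst, was at 161, 105, 44.7 and 89.1 CPM and 78.6 and 27.0 CPM. *Gata3*, a zinc-finger factor of trophoblast and amnion, was at 42.7, 32.6, 1.45 and 20.2 CPM and 33.8 and 1.23 CPM. These 3 genes were highest in *Stat3* null 1. *Tfap2a*, at 38.3, 21.3, 7.17 and 12.9 CPM and 47.5 and 6.33 CPM, was not, and *Esx1*, an X-linked homeobox gene of the placenta, ranged over 0 to 1.22 CPM. *Fgfbp1*, a carrier that frees FGFs from the matrix, was at 48.7, 7.85, 1.45 and 16.1 CPM and 16.5 and 0.246 CPM, and *Sct*, the secretin gene, at 0, 0.174, 0 and 0.595 CPM and 3.01 and 0.352 CPM. The carrier gene followed *Elf5*, with *Stat3* null 1 highest.

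In the ectoplacental cone group *Plet1*, a membrane protein of early trophoblast, was at 99.5, 65.3, 18.1 and 59.8 CPM in *Stat3* null and 67.3 and 10.97 CPM in WT at E5.5. *Gjb5*, a gap junction protein, was at 53.4, 11.9, 1.26 and 5.88 CPM and 10.9 and 1.37 CPM. *Ascl2*, the bHLH factor of the cone, ranged over 0 to 16.9 CPM and *Plac1* over 0 to 13.7 CPM. *Rhox5* was at 607, 262, 125 and 235 CPM and 182 and 88.7 CPM, and *Rhox9* at 2.07, 1.31, 6.55 and 8.31 CPM and 1.54 and 1.30 CPM. *Krt19* was at 98.4, 29.3, 3.80 and 49.6 CPM and 51.8 and 15.3 CPM and *Krt7* at 44.9, 14.3, 5.22 and 46.6 CPM and 49.5 and 13.3 CPM. *Mmp9*, a matrix protease of giant cells, was at 1.25, 1.96, 0 and 0 CPM and 4.44 and 0 CPM. *Plet1*, *Gjb5*, *Ascl2*, *Rhox5* and *Krt19* were highest in *Stat3* null 1. Annotated exons of *Tfap2a*, *Gata3*, *Bmp8b*, *Wnt7b* and *Plet1* overlap those of other genes, and the strand setting of the counting was not given in the sources used here, so reads of the overlaps cannot be assigned with certainty. *Prl2c2*, which had near-identical copies, was not over 3 counts at E5.5.

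**Figure D2:**
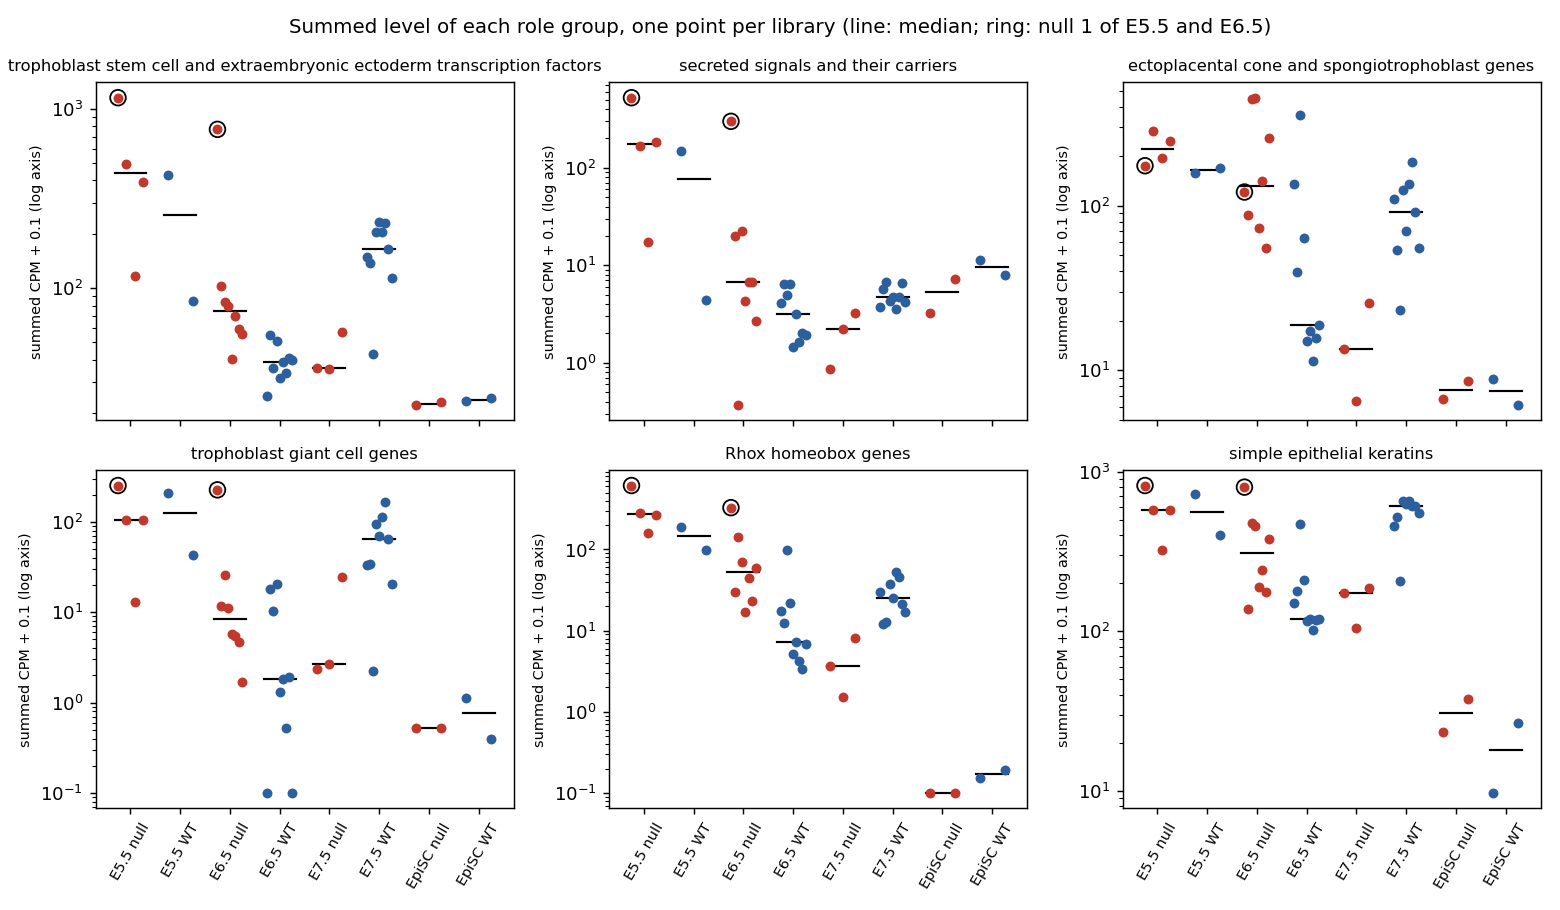
Summed level of the genes of each of the 6 roles (log axis, CPM + 0.1), 1 point per library by stage and genotype, with a line at the median of each group and rings on E5.5 *Stat3* null 1 and E6.5 *Stat3* null 1. The ringed libraries lie at the top of their groups for every role except the ectoplacental cone group. Over the epiblast libraries the keratin sums span a narrower range than those of the other roles.

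After a filter on low counts 28 of the 30 genes could be tested between genotypes at E5.5, and none passed the threshold (a difference over 1 on the log2 scale and an adjusted p below 0.05, quasi-likelihood test of edgeR, p-values adjusted over all genes by Benjamini-Hochberg), and of all 18690 genes tested 0% were called. At an unadjusted p under 0.05 there were 2 of the 28 genes and 467 of all genes, and DESeq2 called 1 of the 28 genes, *Prl3d3*, and 31 of all genes. The largest fitted differences were in the placental lactogen genes. *Prl3d1* was at 0, 0.436, 0 and 0 CPM in *Stat3* null libraries 1 to 4 and at 43.0 and 19.8 CPM in WT 1 and 2. *Prl3d3* was at 0.409, 0.436, 0 and 0.155 CPM and 18.04 and 7.14 CPM. Both WT libraries lay above all 4 *Stat3* null libraries for these genes, as they did for *Plac1*, which is needed for placental growth. Genes whose *Stat3* null range lay below the WT range made up 6.90% of all genes tested at E5.5, so 3 of 28 was close to the background. The fitted differences were -8.38 ± 1.63 for *Prl3d1* and -5.66 ± 1.18 (log2, SE) for *Prl3d3*, each with an adjusted p of 0.999. An exact permutation test of each gene (two-sided, 4 against 2 libraries) gave p = 0.0667, the smallest value that the 15 regroupings allow. Both genes were singled out because their groups did not overlap, so this p follows from that choice and adds no support. The filter can also admit a gene on the 2 WT libraries alone, and the direction of such a gene follows from it. The 3 *Prl3d* transcripts are 98.4% to 98.5% identical, so their counts cannot be assigned to a single copy; summed over *Prl3d1*, *Prl3d2* and *Prl3d3* they came to 20, 29, 0 and 82 counts in *Stat3* null and 2450 and 1198 counts in WT libraries. Without *Stat3* null 1, 13 instead of 20 of the 28 genes had a fitted difference above 0, and 0 passed the threshold.

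At E6.5 all 22 genes that passed the filter on low counts had a fitted difference above 0, that is higher in *Stat3* null epiblasts, and none passed the threshold. Without the filter, and with DESeq2, 26 of 29 genes were above 0, and with a depth term 21 of 22. *Elf5* was at 171 CPM in *Stat3* null 1, at 0.503, 3.90 and 7.96 CPM (lowest, median and highest) in the other 7 *Stat3* null libraries and at 0, 0.542 and 2.71 CPM in WT. *Cdx2* was at 40.4 CPM in *Stat3* null 1, 0, 2.69 and 6.70 CPM in the other 7 and 0, 0.590 and 1.67 CPM in WT. For both genes *Stat3* null 1 was far above every other library, and the other 7 overlapped with WT. *Wnt7b* was at 214 CPM in *Stat3* null 1, 0, 3.94 and 14.1 CPM in the other 7 and 0, 0.819 and 4.09 CPM in WT. *Hand1* was at 210.1 CPM, 0.677, 4.15 and 16.2 CPM and 0, 1.15 and 10.2 CPM in the same order. *Ets2* was at 191 CPM in *Stat3* null 1, 26.8, 38.1 and 55.7 CPM in the other 7 and 17.8, 25.8 and 36.6 CPM in WT, and the groups overlapped between 26.8 and 36.6 CPM. *Krt8* was at 244 CPM in *Stat3* null 1, 59.2, 96.4 and 225 CPM in the other 7 and 31.2, 45.0 and 191 CPM in WT, with WT 3 alone above 100 CPM among the WT.

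*Tfap2c* was at 255 CPM in *Stat3* null 1, 1.38, 7.38 and 22.4 CPM in the other 7 and 0, 4.79 and 7.21 CPM in WT. *Tead4*, *Gata3* and *Tfap2a* were at 62.5, 32.9 and 17.4 CPM in *Stat3* null 1, against 4.56 to 17.8, 0.357 to 6.15 and 0.805 to 9.17 CPM in the other 7 and 0.705 to 10.2, 0 to 1.84 and 0.485 to 3.33 CPM in WT. *Krt18* was at 422 CPM in *Stat3* null 1, 69.0, 133 and 235 CPM in the other 7 and 67.5, 74.2 and 251 CPM in WT. Each of these genes was highest in *Stat3* null 1, and each overlapped between the other 7 and WT. *Bmp8b*, *Fgfbp1*, *Plet1* and *Gjb5* were at 60.7, 23.1, 16.9 and 55.5 CPM in *Stat3* null 1 and reached 5.15, 8.76, 16.4 and 1.56 CPM at most in the other 16 libraries. *Krt19* was at 117 CPM there and reached 30.3 CPM elsewhere, and *Krt7* was at 17.4 CPM and reached 13.8 CPM. The remaining *Esx1*, *Sct*, *Ascl2*, *Plac1*, *Mmp9*, *Prl3d1*, *Prl3d3*, *Prl2c2*, *Rhox6* and *Rhox9* stayed at or below 7.32 CPM in those 16 libraries.

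The median of the 22 fitted differences was 1.996 on the log2 scale, against -0.01 over all 17095 genes tested, of which 0% were called. Of the 22 genes, 15 had an unadjusted p under 0.05, each with a difference above 0, among 1414 of all genes. These 15 had adjusted p-values of 0.384 to 0.571, with 4.77 ± 1.36 for *Elf5*, 4.85 ± 1.66 for *Wnt7b*, 3.50 ± 1.08 for *Cdx2* and 1.15 ± 0.41 (log2, SE) for *Krt8*. The other 11 were *Fgfbp1* (3.66 ± 1.22), *Hand1* (3.41 ± 1.31), *Gata3* (3.29 ± 1.09), *Tfap2c* (3.21 ± 1.03), *Bmp8b* (2.28 ± 0.85), *Rhox5* (2.17 ± 0.79), *Krt19* (1.9999 ± 0.85), *Tead4* (1.94 ± 0.60), *Tfap2a* (1.54 ± 0.61), *Ets2* (1.18 ± 0.34) and *Krt18* (0.81 ± 0.36). DESeq2 called 0 of 29 genes and 30 of all genes. Without *Stat3* null 1 the 22 differences were still above 0 with a median of 0.99, and 2 had an unadjusted p under 0.05: *Ets2* at 0.58 ± 0.17 and *Krt8* at 0.98 ± 0.41 (log2, SE). *Elf5* then stood at 2.05 ± 1.03, *Cdx2* at 1.91 ± 0.99 and *Bmp8b* at 0.17 ± 0.60. The sums of epiblast markers ran from 3685 CPM in *Stat3* null 1 to 6928 CPM in *Stat3* null and from 5175 to 7871 CPM in WT, and 0 of the 10 epiblast markers were called, 2 of them with a fitted difference above 0 and with a median of -0.24 on the log2 scale. Of the 18 visceral endoderm markers 0 were called as well, but all 18 had a fitted difference above 0, with a median of 1.17. The part of endoderm in the differences of the 22 genes was not tested.

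At E6.5 *Nrk* had a median of 104 CPM in *Stat3* null libraries (136 CPM without *Stat3* null 1) and 17.4 CPM in WT, and the genotypes overlapped. It was highest in 4 libraries that were not of a single genotype. It was at 439, 446 and 254 CPM in *Stat3* null 3, 4 and 8 and at 352 CPM in WT 3, and at 10.9 to 136 CPM in the other 13 libraries. The summed level of the 18 visceral endoderm markers was 8364, 6399, 5573 and 7252 CPM in the same 4 libraries and 186 to 2217 CPM in the other 13. *Rhox5* was at 139, 67.1, 58.6 and 93.1 CPM in these 4 libraries and at 313 CPM in *Stat3* null 1, where the visceral endoderm sum was 442 CPM. The part of endoderm in the levels of *Nrk*, *Rhox5* and the keratins was not tested.

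**Figure D3:**
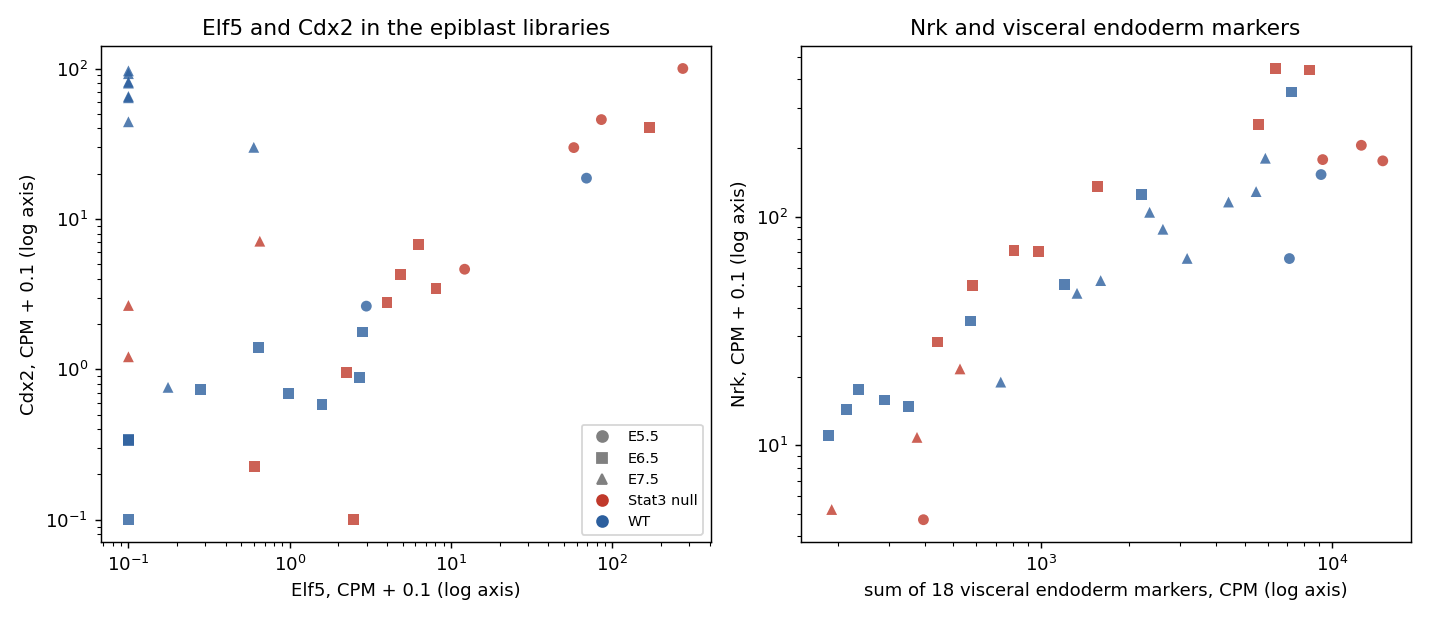
Left, *Cdx2* against *Elf5*, and right, *Nrk* against the summed level of 18 visceral endoderm markers, in the 35 epiblast libraries. Axes are CPM on log scales, with 0.1 added for single genes. Each point is 1 library, with its shape set by stage and its colour by genotype. *Cdx2* was higher where *Elf5* was higher among E5.5 and E6.5 libraries, while the E7.5 WT libraries other than WT 3 lie at 29.8 to 96.4 CPM of *Cdx2* with at most 0.498 CPM of *Elf5*.

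At E7.5, 5 of the 24 genes tested were lower in *Stat3* null epiblasts and 0 were higher. The 5 were *Krt18*, *Krt19*, *Rhox5*, *Tead4* and *Krt8*; genes called lower made up 1.09% of all 19680 tested. *Krt18* was at 76.7, 56.8 and 75.8 CPM in *Stat3* null 1 to 3 (mean ± SD 69.8 ± 11.3) and at 106, 259 and 288 CPM (lowest, median and highest of 9) in WT (228 ± 61.3). The fitted difference was -1.62 ± 0.26 on the log2 scale (± SE; adjusted p = 0.0200), and the groups did not overlap. *Krt19*, a further keratin of simple epithelia, was at 3.43, 0.781 and 2.88 CPM in *Stat3* null and 6.003, 16.5 and 24.2 CPM in WT, a difference of -2.60 ± 0.51 (adjusted p = 0.0299), with no overlap. *Rhox5* was at 3.51, 1.43 and 5.79 CPM in *Stat3* null and 12.02, 23.2 and 49.9 CPM in WT, a difference of -2.82 ± 0.58 (adjusted p = 0.0349), with no overlap.

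*Tead4* was at 1.83, 1.97 and 1.32 CPM in *Stat3* null and 3.12, 10.9 and 21.9 CPM in WT. Its difference was -2.72 ± 0.62 (adjusted p = 0.0430), and the groups did not overlap. *Krt8* was at 83.5, 42.3 and 103 CPM in *Stat3* null and 83.3, 315 and 369.8 CPM in WT, a difference of -1.86 ± 0.40 (adjusted p = 0.0446). WT 3, at 83.3 CPM, was the single WT library inside the *Stat3* null range of *Krt8*. The fifth gene without overlap was *Ets2*, at 26.8, 23.9 and 33.9 CPM in *Stat3* null and 35.3 to 59.3 CPM in WT, with a fitted difference of -0.66 ± 0.17 (adjusted p = 0.0603). Genes whose *Stat3* null range lay below the WT range made up 2.45% of all genes tested at E7.5.

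**Figure D4:**
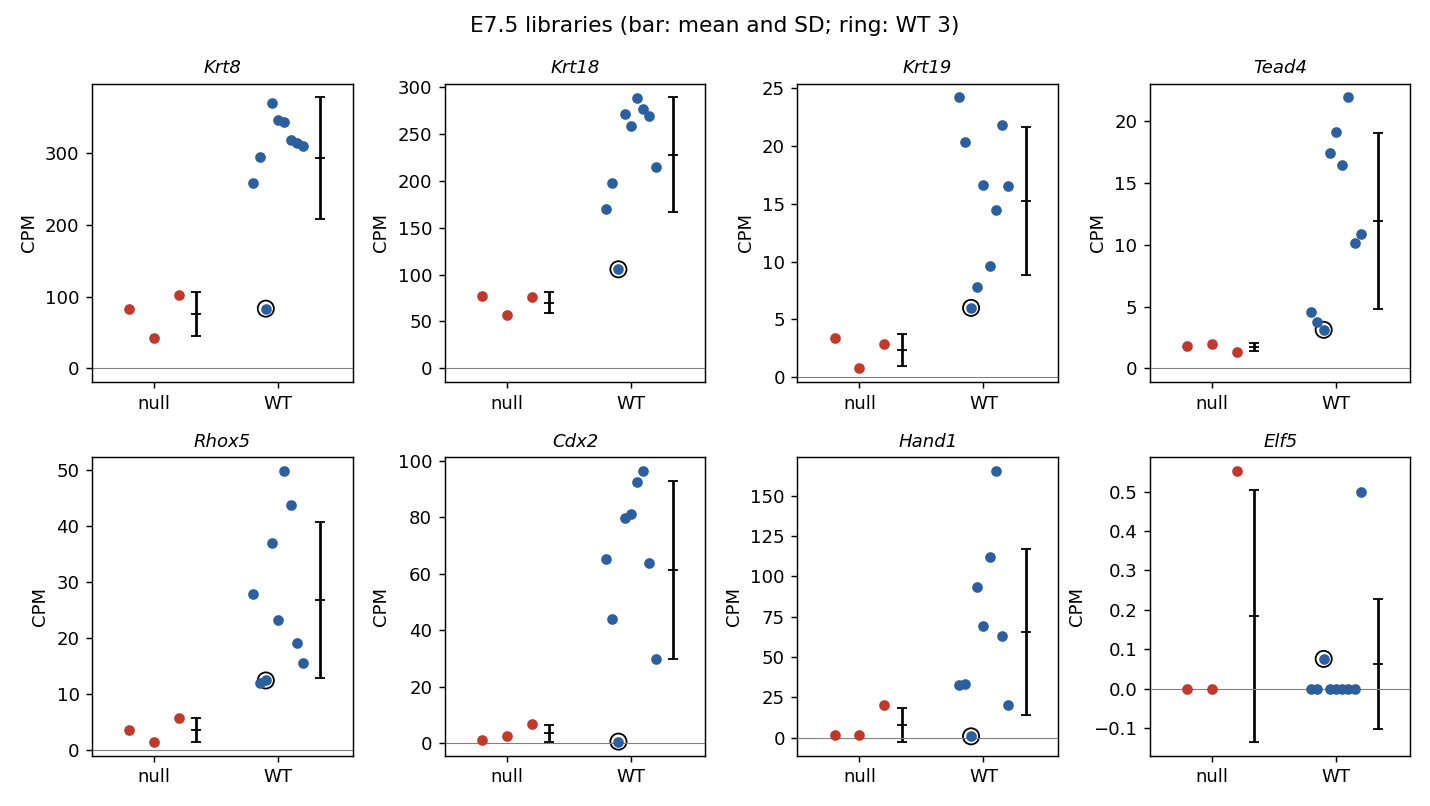
Level of *Krt8*, *Krt18*, *Krt19*, *Tead4*, *Rhox5*, *Cdx2*, *Hand1* and *Elf5* in the 3 *Stat3* null and 9 WT libraries at E7.5 (CPM, 1 point per library, mean and SD beside each group, WT 3 ringed). The ringed library lies at the bottom of the WT for *Krt8*, *Krt18*, *Krt19*, *Tead4*, *Cdx2* and *Hand1*, near the *Stat3* null libraries.

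*Cdx2* and *Hand1* differed in most libraries but did not pass the threshold. *Cdx2* was at 1.11, 2.56 and 7.01 CPM in *Stat3* null 1 to 3, 0.659 CPM in WT 3 and 29.8, 72.5 and 96.4 CPM in the other 8 WT. The fitted difference was -4.02 ± 1.17 (adjusted p = 0.0941). *Hand1* was at 1.63, 1.94 and 20.3 CPM in *Stat3* null, 0.836 CPM in WT 3 and 20.4, 66.3 and 165 CPM in the other 8 WT, with a fitted difference of -2.96 ± 1.34 (adjusted p = 0.257). For both genes WT 3 lay below all 3 *Stat3* null libraries, while the other 8 WT lay above them. *Tfap2a* was at 2.40, 0.996 and 9.87 CPM and *Gata3* at 1.41, 0.565 and 1.44 CPM in *Stat3* null, against 17.5 to 44.3 and 3.18 to 16.1 CPM in the 8 WT. Their fitted differences over all 12 libraries were -2.43 ± 0.90 and -3.03 ± 0.83, short of the threshold (adjusted p = 0.162 and 0.0695). *Nrk* was at 10.7, 5.14 and 21.5 CPM in *Stat3* null and 18.8, 88.1 and 180.4 CPM in WT (-2.75 ± 0.70, adjusted p = 0.0663), *Fgfbp1* at 0.173, 0.135 and 1.25 and 0.461, 2.93 and 4.92 CPM (-2.35 ± 0.82) and *Tfap2c* at 2.27, 4.93 and 2.95 and 1.67, 9.28 and 16.96 CPM (-1.27 ± 0.50). The groups overlapped for these 3 genes, and the other 11 genes tested, *Hand1* included, had an unadjusted p over 0.05. *Sct* had no count in the 3 *Stat3* null libraries and was over 3 counts in only 4 of the 9 WT libraries (median 0, highest 1.57 CPM). Its WT mean of 0.429 CPM was at least 5.67-fold higher against the mean of 3 counts per library. That bound rests on those 4 WT libraries.

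*Elf5* was over 3 counts in 1 *Stat3* null library, 0.552 CPM in *Stat3* null 3, and in 1 WT library, 0.498 CPM in WT 9, so it was not detectable in most E7.5 epiblasts at this depth. Without WT 3, 10 genes were called lower, the 5 above with *Gata3*, *Cdx2*, *Nrk*, *Tfap2a* and *Tfap2c*, and without any 1 of the 3 *Stat3* null libraries 0 were called. Other tissues moved with the genotype at this stage. Of the 18 visceral endoderm markers 4 were called lower in *Stat3* null (*Sox17*, *Apoe*, *Trf* and *Afp*), and their sums were 191 to 527 CPM in *Stat3* null and 727 to 5896 CPM in WT. Of 9 markers of extraembryonic mesoderm and amnion 1 was called lower (*Pitx1*), with sums of 62.2, 65.7 and 122 CPM in *Stat3* null, 51.6 CPM in WT 3 and 259 to 779 CPM in the other WT. This sum had been high in some E5.5 libraries too, at 1100 CPM in *Stat3* null 1 and 878 CPM in WT 1. Of the 10 epiblast markers 0 were called, but all 10 had a fitted difference above 0, with a median of 1.66 on the log2 scale. In the edgeR test 9 of them had an unadjusted p under 0.05. Their sums were 4990 to 6773 CPM in *Stat3* null, 6669.6 CPM in WT 3 and 1196 to 3371 CPM in the other WT. Of 6 parietal endoderm markers 2 were called lower (*Lama1* and *Plat*), with sums of 206 to 274 CPM in *Stat3* null and 271 to 632 CPM in WT, and no marker in these 4 lists was at 0 throughout either genotype. The part of these tissues in the lower keratin, *Rhox5* and *Tead4* levels was not tested.

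In EpiSCs, 24 of the 30 genes were over 3 counts in at least 1 line, and 6 were above 3 CPM in at least 1 line. *Ets2* was at 19.6 and 20.4 CPM in *Stat3* null lines 2 and 6 and at 19.4 and 19.6 CPM in WT lines 13 and 8, nearly the same in all 4. *Krt18* was at 13.8 and 17.6 CPM and 3.11 and 13.4 CPM, and *Krt8* at 6.01 and 12.6 CPM and 5.42 and 9.83 CPM. *Elf5* was at 0.173 and 0.218 CPM and 0.102 and 0.140 CPM and *Cdx2* at 0.158 and 0.273 CPM and 0.180 and 0.250 CPM. The genes of ectoplacental cone and giant cells *Tpbpa*, *Prl3d1*, *Prl3d3* and *Prl2c2*, and also *Rhox6* and *Rhox9*, did not exceed 3 counts in any line. Between genotypes 0 of the 21 genes tested were called, against 22 of all 20736 genes (0.106%), and DESeq2 called 0 as well. An unadjusted p under 0.05 was found for 4 of the 21, each with a difference below 0: *Gata3* at -1.58 ± 0.41, *Gjb5* at -1.42 ± 0.47, *Krt7* at -1.17 ± 0.42 and *Tead4* at -0.85 ± 0.29 (log2, SE), with adjusted p-values of 0.270 to 0.474. *Gata3* was at 0.331 and 0.240 CPM in the *Stat3* null lines and 0.831 and 0.849 CPM in the WT lines, so all 4 values were low.

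In WT epiblasts 8 of these genes were lower at E6.5 than at E5.5, and 8 were higher at E7.5 than at E6.5. From E5.5 to E6.5 all 28 genes tested had a fitted difference below 0, with a median of -3.76 on the log2 scale against 0.10 over all genes. The filter can admit a gene on the 2 E5.5 libraries alone, as with *Sct*, and the direction of such a gene follows from it. When no filter was applied, 1 of 29 genes was above 0, with a median of -3.77. The 8 called lower were *Krt7* (-2.90 ± 0.40), *Tfap2a* (-3.84 ± 0.59), *Tead4* (-3.74 ± 0.65), *Ets2* (-1.39 ± 0.31), *Cdx2* (-3.98 ± 0.97), *Bmp8b* (-3.31 ± 0.86), *Gata3* (-4.83 ± 1.26; log2, SE) and *Sct*, with adjusted p-values of 0.00133 to 0.0326; genes called lower made up 2.63% of all genes tested. A further 13 genes had an unadjusted p under 0.05, among them *Wnt7b* (-5.38 ± 1.49, adjusted p = 0.05003), *Elf5* (-5.24 ± 1.5004, adjusted p = 0.0559), *Gjb5* (-5.12 ± 1.64), *Prl3d3* (-4.92 ± 1.71), *Hand1* (-4.71 ± 1.47), *Fgfbp1* (-4.42 ± 1.44) and *Rhox6* (-4.26 ± 1.64). The other 6 were *Plet1* (-3.86 ± 1.12), *Tfap2c* (-3.25 ± 0.94), *Rhox5* (-2.81 ± 1.05), *Krt19* (-2.54 ± 0.95), *Krt8* (-1.85 ± 0.58) and *Krt18* (-1.31 ± 0.45). *Sct* had no count in any of the 9 E6.5 WT libraries and a mean of 1.68 CPM at E5.5, at least 21.9-fold lower at E6.5 against the mean of 3 counts per library. The comparison rested on 2 E5.5 libraries of unequal level: *Cdx2* was at 18.6 CPM in WT 1 and 2.53 CPM in WT 2, against 0 to 1.67 CPM at E6.5. Without E5.5 WT 1 no gene was called, the median was -1.59, and 3 of the 27 genes then tested were above 0, *Bmp8b* (1.11), *Fgfbp1* (0.68 on the log2 scale) and *Mmp9*. Without E5.5 WT 2, 2 of 28 were above 0 and 10 were called lower, and without E6.5 WT 3 18 were called. The visceral endoderm sum moved with the stage too, from 7132 and 9161 CPM at E5.5 to 186 to 7252 CPM (median 350.3) at E6.5, with 1 of 18 markers called lower (*Gata6*).

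From E6.5 to E7.5, 18 genes could be tested, and the 8 that were called by edgeR were all higher. *Cdx2* was higher by 6.49 ± 0.79 (log2, SE; adjusted p = 2.81e-05), *Hand1* by 4.34 ± 1.02 (adjusted p = 0.00480), *Gata3* by 3.93 ± 0.80 and *Tfap2a* by 3.67 ± 0.47. *Fgfbp1* was higher by 2.76 ± 0.86, *Krt8* by 2.08 ± 0.36, *Tead4* by 1.53 ± 0.48 and *Krt18* by 1.06 ± 0.27. Genes called higher made up 5.74% of all genes tested in this comparison. *Ets2* was higher by 0.76 ± 0.13 with an adjusted p of 0.000303, under the size required, and *Krt19* (1.31 ± 0.55) and *Krt7* (0.78 ± 0.30) had adjusted p-values of 0.0874 and 0.0599. DESeq2, which tested 29 genes, called 11, the 8 above with *Krt19* and *Sct* higher and *Elf5* lower (adjusted p = 0.0476). Without WT 3 of E7.5 edgeR called the same 8 genes, with 6.66 ± 0.55 for *Cdx2*, 3.83 ± 0.32 for *Tfap2a* and 2.197 ± 0.33 (log2, SE) for *Krt8*. *Elf5* did not pass the filter of the edgeR fit: it was over 3 counts in 6 of 9 WT libraries at E6.5, at up to 2.71 CPM, and in 1 of 9 at E7.5. Markers of extraembryonic mesoderm and amnion rose in the same comparison, 6 of 7 tested being called higher (*Bmp4*, *Ahnak*, *Vim*, *Kdr*, *Hand2* and *Foxf1*), with sums of 30.2 to 59.7 CPM at E6.5 and 51.6 to 779 CPM at E7.5. Within the E7.5 WT libraries WT 3, the lowest for *Cdx2*, was also the lowest for that sum. The same sum reached 1100 CPM in E5.5 *Stat3* null 1 and 878 CPM in E5.5 WT 1, with *Ahnak* at 976 and 813 CPM. *Bmp4* is also among the further trophoblast genes read below, so this list does not separate extraembryonic mesoderm and amnion from trophoblast. Of the 18 visceral endoderm markers 4 were higher at E7.5 (*Sox17*, *Ttr*, *Gata6* and *Rbp4*), with sums of 186 to 7252 CPM at E6.5 and 727 to 5896 CPM at E7.5. The part of these tissues in the levels of *Cdx2*, *Hand1*, *Gata3* and *Tfap2a* was not tested.

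**Figure D5:**
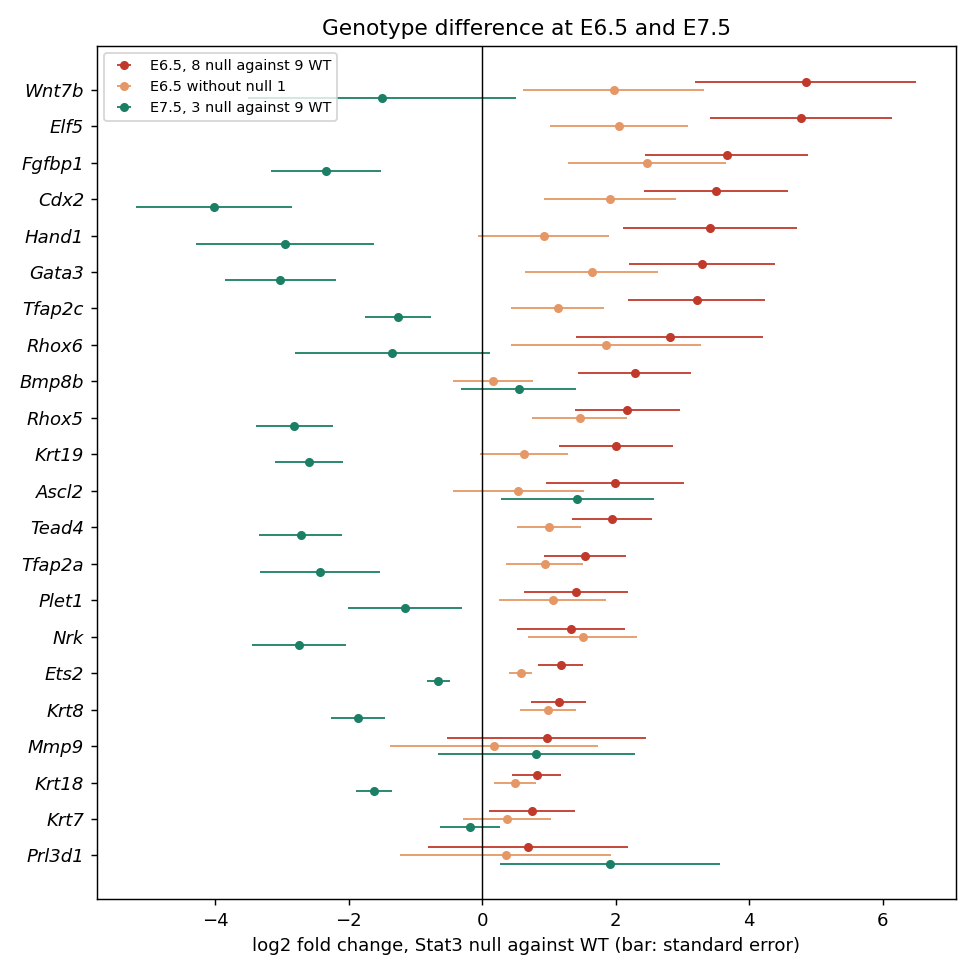
Fitted difference between *Stat3* null and WT epiblasts for each gene tested (log2, ± SE) at E6.5, at E6.5 without *Stat3* null 1, and at E7.5. All values are above 0 at E6.5 and most are below 0 at E7.5, and leaving out *Stat3* null 1 moves most E6.5 values towards 0.

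The genotype difference changed between E6.5 and E7.5 for 3 of the 29 genes tested. The change was -4.69 ± 1.08 for *Tead4* (adjusted p = 0.0442), -3.03 ± 0.69 for *Krt8* (adjusted p = 0.0448) and -2.46 ± 0.58 for *Krt18* (log2, SE; adjusted p = 0.0478), each from a fitted difference above 0 at E6.5 to 1 below 0 at E7.5. Genes called in either direction made up 0.443% of all 22122 tested, 98 in all. The value for *Cdx2* was -7.58 ± 1.98 (adjusted p = 0.0658), without passing the threshold. An unadjusted p under 0.05 was found for 13 further genes, with *Rhox5* (-5.03 ± 1.33), *Ets2* (-1.86 ± 0.51), *Tfap2a* (-3.99 ± 1.11), *Gata3* (-6.35 ± 1.86), *Krt19* (-4.63 ± 1.42), *Fgfbp1* (-6.03 ± 2.01), *Nrk* (-4.11 ± 1.36), *Tfap2c* (-4.51 ± 1.597), *Hand1* (-6.40 ± 2.31), *Gjb5* (-6.93 ± 2.89) and *Wnt7b* (-6.37 ± 3.03) below 0. The other 2 were *Prl2c2*, whose copies share reads and which had no count in the 8 *Stat3* null libraries of E6.5 and 0, 0 and 65 counts in those of E7.5, and *Sct*, at 0 in all E7.5 *Stat3* null and E6.5 WT libraries, so no difference is given for them. Without E6.5 *Stat3* null 1 the count was 4, *Ets2* being added. Without E7.5 WT 3 it was 8, with *Tfap2a*, *Ets2*, *Gata3*, *Cdx2* and *Rhox5* added, and without any 1 of the 3 *Stat3* null libraries of E7.5 it was 0. DESeq2 called 13 of 27 genes, and without a filter on low counts 0 of 29 were called. These values use the same 8 *Stat3* null and 9 WT libraries of E6.5 and 3 and 9 of E7.5 as the comparisons above and add no further embryos.

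A further 20 genes of the trophoblast were read beside the 30. Between genotypes 0 of those tested were called at E5.5 or E6.5, or in the change between E6.5 and E7.5. At E7.5 1 of 14 was called, *Dlx3*, a homeobox factor of the labyrinth, with a difference of -3.37 ± 0.78 (log2, SE; adjusted p = 0.0419). In EpiSCs 1 of 15 was called, *Flt1*, a VEGF receptor, with a difference of -1.202 ± 0.11 (adjusted p = 0.0189). From E5.5 to E6.5 in WT, *Bmp4* (-4.17 ± 0.97), *Sox21* (-6.21 ± 1.57) and *Fgfr2*, the receptor through which FGF4 maintains trophoblast stem cells (-3.51 ± 0.73), were lower and *Flt1* (1.86 ± 0.46) higher, of 16 tested. From E6.5 to E7.5 7 of 13 were higher, among them *Phlda2* (4.31 ± 0.47), *Fgfr2* (3.67 ± 0.39) and *Sox21* (5.59 ± 0.97), and 2 were lower, *Eomes* (-2.93 ± 0.80) and *Pcsk6* (-1.78 ± 0.23). *Eomes*, which both trophoblast stem cells and the primitive streak express, was at 2.84 to 21.4 CPM in 8 E7.5 WT libraries, 203 CPM in WT 3 and 336, 421 and 394 CPM in *Stat3* null.

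Within a group, some pairs of genes moved together from embryo to embryo. Of 12 relations computed (*Elf5* with *Cdx2*, *Krt8* with *Krt18*, *Elf5* with *Krt8* and *Rhox6* with *Rhox9*, each in 3 groups, log2 CPM, exact two-sided permutation tests adjusted over the 12), 5 had an adjusted p below 0.05. *Elf5* and *Cdx2* were related in E6.5 WT epiblasts (r = 0.767, exact permutation adjusted p = 0.0206; rho = 0.780, adjusted p = 0.0452; 9 libraries) and in E6.5 *Stat3* null epiblasts (r = 0.814, exact permutation adjusted p = 0.0347; rho = 0.857, adjusted p = 0.0321; 8 libraries). Without the 2 libraries farthest from the median of *Elf5*, r was 0.689 and 0.721. *Krt8* and *Krt18* were related in E6.5 WT (r = 0.940, exact permutation adjusted p = 0.0092; rho = 0.833, adjusted p = 0.0321), in E7.5 WT (r = 0.910, exact permutation adjusted p = 0.0016; rho = 0.883, adjusted p = 0.0185) and in E6.5 *Stat3* null epiblasts (r = 0.923, exact permutation adjusted p = 0.0012; rho = 0.976, adjusted p = 0.0048). Without the 2 libraries farthest in *Krt8*, r was 0.654, 0.893 and 0.865. Sequencing depth split the E6.5 libraries, and within the 6 WT libraries under 40000000 counts r was 0.710 for *Elf5* and *Cdx2* and 0.939 for *Krt8* and *Krt18*; the deeper libraries, and the *Stat3* null libraries of either depth, were too few. No relation of *Elf5* and *Krt8* was detected in E6.5 WT (r = -0.204, exact permutation adjusted p = 0.650) or *Stat3* null epiblasts (r = 0.388, exact permutation adjusted p = 0.489). Without the 2 libraries farthest from the median of *Elf5*, r turned to 0.653 in WT and to -0.676 in *Stat3* null epiblasts. In the 6 E6.5 WT libraries under 40000000 counts r was 0.645 for this pair, opposite in sign to the value over all 9. At E7.5 *Elf5* was detected in too few WT libraries for a relation to be read. *Rhox6* and *Rhox9* gave adjusted p-values of 0.333 to 0.650 for r in the exact permutation tests of the 3 groups. *Rhox9* was over 3 counts in 1 of 9 E6.5 WT, 1 of 8 E6.5 *Stat3* null and 2 of 9 E7.5 WT libraries. With so few values above 0 these tests cannot decide whether the pair is related.

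Over the 33 epiblast libraries other than E5.5 and E6.5 *Stat3* null 1, the mean log2 CPM of the 8 transcription factors was compared with each of 24013 other genes. Genes with a similar pattern were *Cbfa2t3* (r = 0.881), *Rras2* (0.845), *Sox21* (0.845), *Creb3l2* (0.837), *Hdlbp* (0.835), *Jak1* (0.832), *Sidt2* (0.821), *Spag9* (0.818) and *Gm1673* (0.815). *Cbfa2t3*, a transcriptional corepressor, had mean levels of 46.1 and 31.2 CPM in E5.5 *Stat3* null and WT epiblasts, 6.18 and 0.539 CPM at E6.5 and 1.25 and 5.08 CPM at E7.5. Of the 30 genes themselves, *Bmp8b* (r = 0.715) and *Wnt7b* (r = 0.703) were the nearest to *Elf5* alone, while *Cdx2* (r = -0.02), *Tfap2a* (r = 0.02) and *Krt8* (r = -0.01) had values near 0 across the 3 stages. These correlations describe libraries of several stages that share dissection and depth, and no test was attached to them.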

How the data were processed

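The deposited files held raw read counts per gene, 1 table for the 35 epiblast libraries and 1 for the 4 EpiSC libraries. According to the labels and the study's methods the authors isolated RNA from single epiblasts and prepared stranded total RNA libraries for low input, whereas EpiSC RNA was depleted of ribosomal RNA and prepared with another kit. The submitters' processing notes name Trim Galore, HISAT2, StringTie and GRCm38 (mm10); the annotation release and the strand setting of the counting are not given in the sources used here. The authors pooled no replicates.

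Each comparison was fitted on all genes of its table with edgeR (v4.0.16; TMM, filterByExpr with a minimum count of 10, robust quasi-likelihood test) in R (v4.3.3), with Benjamini-Hochberg adjustment over all genes tested. A gene was called at a log2 difference over 1 and an adjusted p below 0.05. CPM was computed from deposited counts over the library total, with 3 counts as floor, which covers counting error only. Fitted differences carry SE = difference / square root of F. Alternatives were DESeq2 (v1.42.0), its size factors in edgeR, no filter, leaving out genes over 1% of counts, a replicate block, a depth term split at 40000000 counts, and each library left out (for the change between E6.5 and E7.5, 5 libraries, of which 4 were chosen after seeing the data). Scripts were tested on simulated data. Gene positions and lengths came from the GRCm38 annotation, matched by gene ID without its version; copies were found with blastn (v2.17.0) and promoters read from RefSeq.

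The genes and lists, and the rule for naming genes (library values for genes called anywhere and for the 3 highest of each role, other genes by range; fitted differences at an unadjusted p under 0.05; other genes from those lists or as the 10 most like the mean of the transcription factors, of which 1 is not reported here), were chosen with earlier results of these data known. E6.5 comparisons share libraries with the stage comparisons.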

Additional observations from a re-analysis of the deposited data

Results flagged for a closer look

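Among 28 summed levels tested in groups of 4 to 10 libraries for 1 library far from the others (its gap to the nearest over the whole range, log2 scale), 7 exceeded Dixon's 95% value, where chance gives about 1 in 20. The sum of the 30 genes holds the sums of the roles, so the 28 are not independent and the 7 cannot be set against that rate. E7.5 WT 3 was the lowest WT library for the sum of the 30 genes (0.657), the transcription factors (0.577), the giant cell genes (0.514) and the keratins (0.69). E6.5 WT 3 was the highest WT library for the sum of the 30 genes (0.522) and for the keratins (0.53), and it was also the WT library with the highest visceral endoderm sum. E6.5 *Stat3* null 1 was the highest *Stat3* null library for the transcription factors (0.68).

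The difference between *Stat3* null and WT epiblasts changed between E6.5 and E7.5 for *Tead4* (-4.69), *Krt8* (-3.03) and *Krt18* (-2.46 on the log2 scale), by the interaction term of the edgeR fit over both stages. The part of the reported developmental delay in these changes was not tested.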

How the results depend on the processing

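The calls of the 30 genes depended on the tool and on single libraries. With DESeq2 the count was 1 in place of 0 at E5.5, 11 in place of 5 at E7.5, 16 in place of 8 from E5.5 to E6.5 in WT, 11 (10 higher and 1 lower) in place of 8 from E6.5 to E7.5 in WT, and 13 in place of 3 for the change of the genotype difference. Without a filter on low counts it was 3 at E7.5 and 0 for that change, and with a depth term the change was called for 11 genes. With each library left out in turn the count ran from 0 (without any 1 *Stat3* null library) to 10 (without WT 3) at E7.5, from 0 (without E5.5 WT 1) to 18 (without E6.5 WT 3) from E5.5 to E6.5 in WT, and from 0 to 1 (without WT line 8) in EpiSCs. For the change of the genotype difference it was 4 without E6.5 *Stat3* null 1, 8 without E7.5 WT 3 and 0 without any 1 E7.5 *Stat3* null library, the last 4 fits being chosen after seeing the data. *Bmp8b* and *Fgfbp1* turned in sign without E5.5 WT 1 (1.11 and 0.68 on the log2 scale), while without E5.5 WT 2 they were at -4.32 and -5.43. The change of *Prl2c2*, near 0 counts in most libraries, turned to -0.71 without E7.5 *Stat3* null 3 and reached 7.19 without *Stat3* null 2. The cause of these changes was not tested, other than that leaving out libraries leaves fewer samples. The remaining 82 counts and summed levels kept within 1.5 times or 1 SD, and of the values of single genes 1261 kept their side of the threshold, 65 passed it newly, 86 no longer passed it and 3 reversed.

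Same-numbered libraries deviated together with r of -0.28 to 0.24. Between genotypes r was over 0.1 in 1 of 2 pairs at E5.5, 4 of 8 at E6.5 and 0 of 3 at E7.5. Differently numbered libraries were not compared, so whether replicate numbers pair the samples was not tested. With the replicate block the count was 0 at E7.5, 1 from E5.5 to E6.5 in WT, 9 from E6.5 to E7.5 in WT and 2 for the change of the genotype difference. No paired fit could be made for the EpiSC lines, whose numbers differ. Over all genes the count was 0 with edgeR and 31 with DESeq2 at E5.5, 0 and 30 at E6.5, 231 and 1027 at E7.5 (172 without a filter, 0 with the block and 1105 without WT 3), 22 and 215 in EpiSCs (75 without a filter), 1070 and 2050 from E5.5 to E6.5 in WT (101 with the block), 1518 and 2331 from E6.5 to E7.5, and 98 and 639 for the change of the genotype difference (35, 22 and 867 without a filter, with the block and with a depth term). Depth limits genes such as *Elf5* at E7.5 and *Sct*, where 1 library at 3 counts is 0.0720 to 0.116 CPM.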
